A study of Mus musculus with 6 samples.

Results

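The proteasome genes of murine bone marrow–derived macrophages (BMDMs) were taken as all gene names on the array that begin with Psma to Psmg followed by a digit, and 49 of the 34844 gene names met this rule, measured by 71 of the 59305 spots that were not controls. The name *Psmc3ip* also fits the rule, although its product is a recombination cofactor and no subunit, and it was kept in the counts of 49. Total RNA from 6 cultures was labelled with Cy3 and hybridized to Agilent arrays, 1 colour per array. All BMDMs came from female wild type C57/B6 mice, 6 to 8 weeks old in the sample records (sources differ on the age), and were differentiated for 7 days in medium conditioned by L929 fibroblasts. They were left untreated, were stimulated with the TLR4 ligand lipopolysaccharide (LPS) for 4 h, or received 10 μM HBX41108, a small molecule inhibitor of the deubiquitinase USP7, for 30 min before the same LPS stimulation (LPS+USP7i), with 2 samples from separate experiments in each group. The series' description gives 100 ng/ml LPS, a value on which the sample records differ by a unit prefix. No group received the inhibitor alone, so its effect without LPS was not measured, and selectivity of the compound for USP7 in these cells was not tested.

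The proteasome degrades ubiquitin-tagged proteins. Its 20S core is a stack of α rings (Psma genes) and β rings (Psmb genes), of which *Psmb5*, *Psmb6* and *Psmb7* encode the catalytic subunits, and the 19S regulator, built from ATPases (Psmc) and non-ATPases (Psmd), binds ubiquitinated substrates, removes the ubiquitin and unfolds them. In cells exposed to interferon the catalytic subunits are replaced by the immunosubunits encoded by *Psmb8*, *Psmb9* and *Psmb10*, and the PA28 activator encoded by *Psme1* and *Psme2* can take the place of the 19S regulator, a form known for supplying peptides to MHC class I. Dedicated chaperones assemble the 20S core (*Psmg1* to *Psmg4*) and the base of the 19S regulator (*Psmd5*, *Psmd9* and *Psmd10*).

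Of the 49 genes, 47 were well above background on all 6 arrays, whereas *Psma8*, the testis form of an α subunit, and *Psmb11*, the thymus form of a β subunit, never stood well above background. Between 25002 and 27467 of the 59305 spots were well above background on an array. A level is given as the log2 of the quantile-normalized signal of the brightest probe of a gene, and a difference between groups as a log2 difference, so that 1 is a doubling. All 10 macrophage markers were well above background on every array, and *Csf1r* had the highest mean signal over the arrays. Their summed normalized signal was 931700, 965400, 863000, 930800, 788700 and 766900 in untreated 1 and 2, LPS 1 and 2, and LPS+USP7i 1 and 2, in that order. At an adjusted p under 0.05, 1 of the 10 was higher and 2 were lower in LPS than in untreated cells (-0.66 to 1.69). In LPS+USP7i against LPS 0 were higher and 2 lower (-1.6 to 0.45). These counts stand beside 7.98% and 12.8%, and 5.51% and 4.28%, of all gene names.

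Lists of markers of other cells were summed in the same way. The 4 T cell markers summed to 781.6, 699, 2624, 3109, 1105 and 1144 in the same order, of which *Cd3g* never stood well above background and *Lck* had the highest mean signal. Within this list the kinase gene *Lck* differed by 4.23 (95% confidence interval 3.66 to 4.80, adjusted p = 0.00331) between LPS and untreated cells and by -2.47 (95% confidence interval -3.04 to -1.90, adjusted p = 0.0161) between LPS+USP7i and LPS. *Cd3e*, the other T cell marker well above background on all arrays, did not pass, at 0.02 and 0.23 (adjusted p = 0.981 and 0.519), so the sum followed *Lck* alone. The 4 B cell markers, with the highest mean signal for *Cd79b*, summed to 1043, 656.4, 1137, 517.7, 685.8 and 281, higher in replicate 1 than in replicate 2 of every group. The 5 neutrophil and progenitor markers, with the highest mean signal for *Elane*, summed to 4443, 4173, 4135, 4016, 4531 and 4606. In this list *Elane* differed by -0.42 between LPS and untreated cells, whereas the other 4 had positive differences. Between LPS+USP7i and LPS it differed by 0.62, whereas the other 4 had negative differences, and none of the 5 passed in either comparison. NK cell (2 genes, highest mean signal for *Klrb1c*, through LPS 2 only), dendritic cell (3 genes, *Zbtb46*), fibroblast (4 genes, *Dcn*) and mast cell (3 genes, *Tpsb2*) markers each summed to at most 203.1 on any array, and *Flt3*, *Xcr1*, *Col1a1*, *Col3a1* and *Mcpt4* were not well above background on any. *Zbtb46*, not well above background in untreated cells, was higher with LPS by at least 5.65-fold (adjusted p = 0.00435) and with LPS+USP7i by at least 4.41-fold (adjusted p = 0.00806). Such a bound sets the mean of the bright group against the dim reading, raised on each array to the smallest signal that counted as well above background where it fell short of that. The part of such cells in the results was not tested, and in whole cultures fewer cells of a type and less RNA per cell cannot be told apart.

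Probes of *Psmb8* and *Psmb9* are printed because both genes fell with the inhibitor and because the probes of *Psmb9* disagreed. They are 60 bases long, 5′ to 3′, with positions on the mm9 build as the files give them.
Psmb8, chr17:34337771-34337830: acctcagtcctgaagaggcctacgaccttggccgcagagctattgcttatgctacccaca
Psmb9, chr17:34319174-34319233, brightest probe: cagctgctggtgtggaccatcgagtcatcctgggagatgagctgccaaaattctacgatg
Psmb9, chr17:34322762-34322821, dim probe: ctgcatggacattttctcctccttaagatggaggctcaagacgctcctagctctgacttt
The 2 *Psmb9* probes lie on the same strand and do not overlap, and the files assign the dim probe to an Ensembl transcript rather than to the RefSeq transcript of the bright one. Whether either position is exonic was not analysed here, since the gene models used were on another build.

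The comparison of LPS with untreated cells asked how stimulation through TLR4 changed these transcripts. LPS raised all 3 immunosubunits and 3 of the 4 activator genes, beside 7.98% of all gene names called higher (14.1% of those well above background). *Psmb10*, whose product replaces the subunit encoded by *Psmb7*, read 15.27 and 15.11 in the untreated samples, 16.59 and 16.56 after LPS alone, and 15.23 and 15.36 after LPS+USP7i. Both LPS samples lay above all untreated samples, and the inhibitor samples lay at the untreated level. The log2 difference between LPS and untreated was 1.38 (95% confidence interval 1.13 to 1.64, adjusted p = 0.0046), and 1.31 within replicate number 1 and 1.46 within number 2. *Psmb9*, which replaces the *Psmb6* subunit, read 13.69 and 13.30 in the untreated samples, 14.74 and 14.47 after LPS alone, and 13.16 and 13.34 after LPS+USP7i. LPS and untreated samples did not overlap, with a log2 difference of 1.11 (95% confidence interval 0.61 to 1.62, adjusted p = 0.0275). *Psmb8*, which replaces the *Psmb5* subunit, read 14.32 and 14.04 in the untreated samples, 14.99 and 14.80 after LPS alone, and 14.00 and 13.96 after LPS+USP7i. It was higher by 0.71 (95% confidence interval 0.35 to 1.08, adjusted p = 0.036) with LPS, the smallest difference among the immunosubunits.

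*Psme2*, a subunit of the PA28 activator, read 15.71 and 15.54 in the untreated samples, 16.84 and 16.93 after LPS alone, and 15.71 and 15.98 after LPS+USP7i. Its difference between LPS and untreated was 1.26 (95% confidence interval 0.91 to 1.61, adjusted p = 0.00898), and that of its partner *Psme1* was 0.74 (95% confidence interval 0.35 to 1.12, adjusted p = 0.0372). RefSeq lists a near copy, *Psme2b*, so signal shared with it is uncertain. *Psme3*, which encodes the nuclear activator PA28γ, rose by 1.29 from 10.81 ± 0.18 (SD, n = 2) to 12.10 ± 0.11 (SD, n = 2), adjusted p = 0.00994. *Psme4*, which encodes the activator PA200, did not pass, at 0.91 (95% confidence interval 0.29 to 1.53, adjusted p = 0.0711). The plot of immunosubunits and activators shows these values array by array beside the constitutive catalytic subunits.

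**Figure D1:**
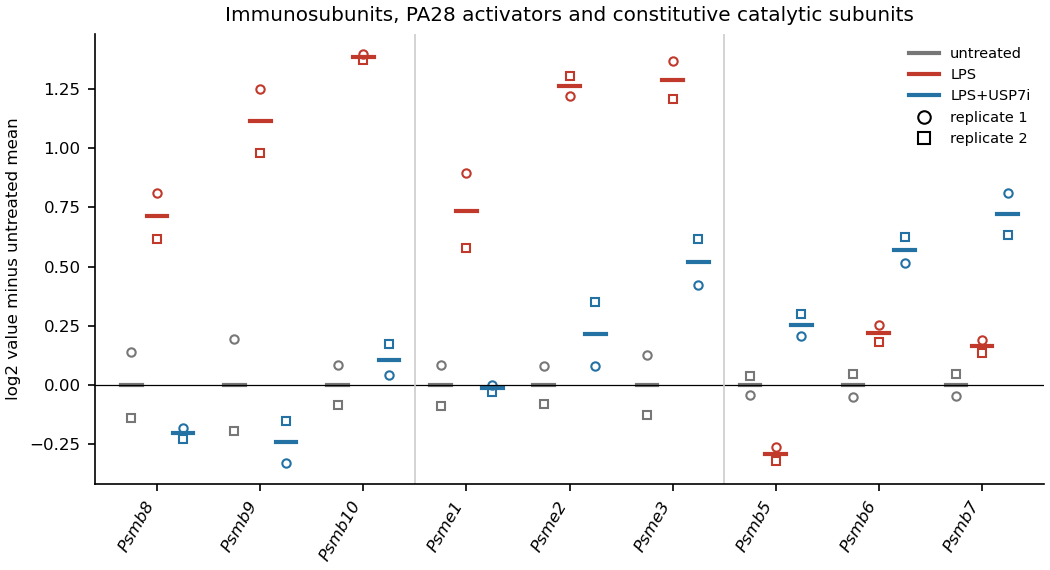
Log2 value of each array minus the mean of the untreated arrays for the immunosubunits, the PA28 activator genes and the constitutive catalytic subunits, with circles for replicate 1, squares for replicate 2 and bars for group means. For Psmb8, Psmb9, Psmb10, Psme1, Psme2 and Psme3 both LPS arrays lie above all other arrays, whereas for Psmb5, Psmb6 and Psmb7 the LPS+USP7i arrays are the highest.

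In all, 13 of the 49 genes were higher in LPS than in untreated cells at an adjusted p under 0.05 and 6 were lower, beside 7.98% and 12.8% of all 34844 gene names. Over gene names well above background on all arrays, 13 of 47 members were higher and 6 lower, beside 14.1% and 23.9% of 15620. The median log2 difference of the 49 genes was -0.03 against 0.00 over all gene names, and 0.02 against -0.18 over gene names well above background. The lower calls were near the share over all gene names and under the share over gene names well above background (12.8% of members). Besides the genes above, 3 of the 7 α subunits rose. *Psma6* had the largest change of these, 1.10 (95% confidence interval 0.90 to 1.30, adjusted p = 0.00455), and *Psma5* and *Psma3* rose by 0.55 (adjusted p = 0.0381) and 0.36 (adjusted p = 0.038). *Psmb2* alone rose among the 7 constitutive β subunits, by 0.36 (adjusted p = 0.0296). The catalytic *Psmb5*, *Psmb6* and *Psmb7* did not pass, with log2 differences of -0.29, 0.22 and 0.16.

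With LPS, 2 of the 17 19S ATPase and non-ATPase genes were higher and 3 lower. These counts stand beside 7.98% and 12.8% of all gene names, and 14.1% and 23.9% of those well above background. Both were near those shares. *Psmd11*, a scaffold subunit of the 19S lid, rose by 0.56 (adjusted p = 0.011) and *Psmd14*, the deubiquitinase of the lid, by 0.55 (adjusted p = 0.0426), while the ATPases *Psmc2* and *Psmc3* and the large base subunit *Psmd1* fell by 0.46, 0.36 and 0.35 (adjusted p = 0.0189, 0.0207 and 0.0483). The median over the 17 ATPases and non-ATPases was -0.17, and 12 of them did not pass. Of the 3 assembly chaperones of the 19S base, 1 was higher and 1 lower, beside the same shares. *Psmd10*, also known as gankyrin, rose by 1.10 (adjusted p = 0.0073) and *Psmd5* fell by 0.42 (adjusted p = 0.0158), and *Psmd9* differed by 0.19 (adjusted p = 0.138), with its second probe in the other direction, at -0.36 (adjusted p = 0.0984). The 4 chaperones of the 20S core had differences of -0.60 to -0.35, of which *Psmg1* (adjusted p = 0.0192) and *Psmg3* (adjusted p = 0.0377) passed. The second probes of the lower genes *Psmc2*, *Psmc3* and *Psmg1* did not pass (adjusted p = 0.177, 0.164 and 0.0922). The 20S inhibitor gene *Psmf1*, which encodes PI31, differed by 0.34 (adjusted p = 0.167).

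The lower calls depended on the processing and on which arrays were in the fit. With each array scaled by its 75th percentile, the median log2 difference of all gene names between LPS and untreated moved from 0.00 to 0.40. The share of higher among all called gene names moved from 38.5% to 75%. Of the 49 genes 25 were then higher and 1 was lower, beside 12184 and 4051 of all 34844 gene names. Under that scaling *Psmc2*, *Psmc3* and *Psmd1* read 0.11, 0.24 and 0.17, which was -0.29, -0.16 and -0.23 relative to the median of all gene names, while *Psmd5*, *Psmg1* and *Psmg3* stayed negative at -0.35, -0.32 and -0.22. Scaled by the percentile over spots well above background on all arrays, an alternative chosen after seeing the data, 18 were higher and 6 lower. They stand beside 9834 and 5825 of all 34844 gene names, and all 19 called genes kept their direction. The authors' table gave 8 higher and 1 lower, beside 2254 and 3082 of all gene names. Leaving out any 1 array gave fewer calls in both directions than the main fit, among members and among all gene names. *Psma6*, *Psmb10* and *Psmd10* were called higher in all 16 alternatives run for single genes.

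The comparison of LPS+USP7i with LPS, which shares the LPS samples with the comparison above, asked what the inhibitor changed in stimulated cells. The 19S regulator was higher and the immunosubunits were lower. All 17 ATPase and non-ATPase genes had positive log2 differences, also within each replicate number, 11 passed the threshold, and their median was 0.65, beside 5.51% of all gene names called higher (9.74% of those well above background) and a median of 0.00 over all gene names. *Psmd5*, a chaperone of the 19S base, had the largest difference of the 49 genes. It read 10.52 and 10.52 in the untreated samples, 10.09 and 10.12 after LPS alone, and 11.98 and 11.96 after LPS+USP7i. The inhibitor samples lay above all others and the LPS samples below all others. The log2 difference between LPS+USP7i and LPS was 1.86 (95% confidence interval 1.71 to 2.02, adjusted p = 0.00987), and 1.90 within replicate number 1 and 1.83 within number 2. *Psmd11* read 10.97 and 11.01 in the untreated samples, 11.55 and 11.56 after LPS alone, and 12.96 and 13.05 after LPS+USP7i, so that it was raised by LPS and raised further with the inhibitor, by 1.45 (95% confidence interval 1.28 to 1.62, adjusted p = 0.0104).

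These 2 genes were measured by 1 probe each, printed here because they gave the largest gains with the inhibitor, on mm9 and 5′ to 3′.
Psmd5, chr2:34708108-34708167: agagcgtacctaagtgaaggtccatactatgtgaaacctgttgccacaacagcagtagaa
Psmd11, chr11:80283406-80283920, a stretch longer than the 60 bases of the probe: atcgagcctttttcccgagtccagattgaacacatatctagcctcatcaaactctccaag
*Psmd1* read 13.78 and 13.77 in the untreated samples, 13.39 and 13.46 after LPS alone, and 14.63 and 14.75 after LPS+USP7i, a difference of 1.26 (95% confidence interval 1.06 to 1.46, adjusted p = 0.0116) between LPS+USP7i and LPS. The ATPase gene *Psmc1* rose by 1.09 (adjusted p = 0.0193) and the lid gene *Psmd12* by 1.02 (adjusted p = 0.0151). *Psmc2*, *Psmc3*, *Psmc5* and *Psmc6* rose by 0.54 to 0.97, *Psmc4* at 0.40 did not pass (adjusted p = 0.0976), and *Psmd3*, *Psmd4* and *Psmd7* rose by 0.91, 0.71 and 0.90. *Psmd14* was just outside the threshold, at 0.63 (95% confidence interval 0.33 to 0.94, adjusted p = 0.0507). The other chaperones of the 19S base, *Psmd9* and *Psmd10*, differed by 0.14 and -0.55 and did not pass, although the second probe of *Psmd10* did, at -1.06 (95% confidence interval -1.43 to -0.69, adjusted p = 0.0282).

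**Figure D2:**
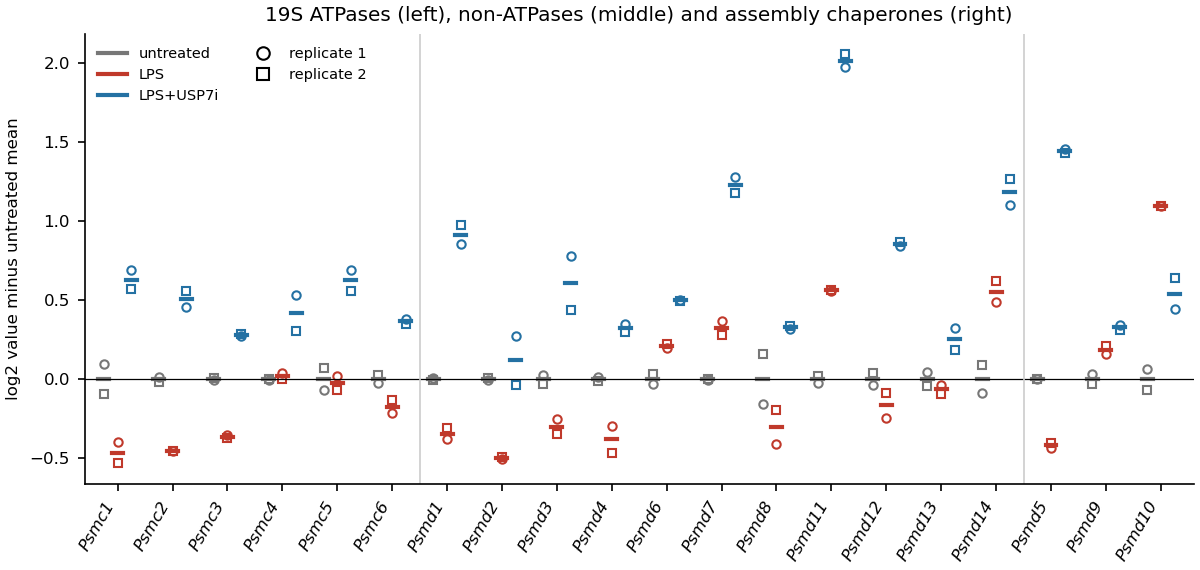
Log2 value of each array minus the mean of the untreated arrays for the 19S ATPases, non-ATPases and assembly chaperones, with circles for replicate 1, squares for replicate 2 and bars for group means. Both LPS+USP7i arrays lie above both LPS arrays for all genes shown but Psmd10, and the LPS+USP7i group mean of Psmd11 lies 2.02 above the untreated mean.

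The 20S core moved less. Of its 14 α and constitutive β genes, 13 had positive differences between LPS+USP7i and LPS, 6 passed, beside 5.51% of all gene names called higher (9.74% of those well above background), and the median was 0.33. *Psma1*, *Psma5* and *Psma7* rose by 0.60, 0.68 and 0.51, and *Psmb3*, *Psmb5* and *Psmb7* by 0.61, 0.54 and 0.56. *Psma6*, at -0.37 (adjusted p = 0.0633), was the exception in sign. The 4 chaperones of the 20S core did not pass, with differences of -0.27 to 0.01. For *Psmg3* and *Psmg4* the 95% confidence intervals were -0.19 to 0.22 and -0.29 to 0.29. *Psmf1* and *Psme4* did not pass either, at 0.17 and -0.11.

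Negative differences between LPS+USP7i and LPS were found for 13 of the 49 genes, and 4 passed, the 3 immunosubunits and *Psme2*. These were 8.16% of members beside 4.28% of all gene names, and 8.51% beside 7.44%, a similar share, over gene names well above background on all arrays. With the replicate number added to the fit as a block, 2 members were lower, beside 1125 of all gene names. The difference was -1.36 (95% confidence interval -1.86 to -0.85, adjusted p = 0.0322) for *Psmb9*, -1.28 (95% confidence interval -1.53 to -1.02, adjusted p = 0.0138) for *Psmb10* and -0.92 (95% confidence interval -1.28 to -0.55, adjusted p = 0.0357) for *Psmb8*. Within replicate numbers 1 and 2, *Psmb9* differed by -1.58 and -1.13, *Psmb10* by -1.35 and -1.20 and *Psmb8* by -0.99 and -0.84. *Psme2* differed by -1.04 (95% confidence interval -1.39 to -0.70, adjusted p = 0.0266). Its partner *Psme1* and *Psme3* were just outside the threshold, at -0.75 (adjusted p = 0.0566) and -0.77 (adjusted p = 0.0525), with LPS+USP7i below LPS on all arrays of both.

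Set against its constitutive partner on the same array, each immunosubunit shifted up with LPS. With the inhibitor the difference to the partner fell past its untreated value. These differences compare changes, not levels of the 2 probes, and carry no test. *Psmb8* minus *Psmb5*, relative to the untreated mean, was 0.18 and -0.18 in the untreated samples, 1.07 and 0.93 after LPS alone, and -0.39 and -0.53 after LPS+USP7i. *Psmb9* minus *Psmb6* was 0.24 and -0.24 in the untreated samples, 1.0 and 0.80 after LPS alone, and -0.84 and -0.78 after LPS+USP7i. *Psmb10* minus *Psmb7* was 0.13 and -0.13 in the untreated samples, 1.21 and 1.24 after LPS alone, and -0.77 and -0.46 after LPS+USP7i. In all 3 pairs the inhibitor samples lay below both untreated samples, and the change from LPS to LPS+USP7i was -1.46, -1.71 and -1.84. Between LPS+USP7i and untreated, *Psmb8*, *Psmb9* and *Psmb10* themselves differed by -0.20, -0.24 and 0.11 and did not pass. Their partners *Psmb5*, *Psmb6* and *Psmb7* differed by 0.255, 0.57 and 0.72 (adjusted p = 0.114, 0.0226 and 0.0189).

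The dim *Psmb9* probe printed above gave another picture. It read 3.62 and 2.79 in the untreated samples, 6.20 and 5.62 after LPS alone, and 5.76 and 5.37 after LPS+USP7i, and it was not well above background in the untreated samples, so its rise with LPS was at least 4-fold (adjusted p = 0.0196). With the inhibitor it remained at least 3.16-fold above untreated (adjusted p = 0.0338) and differed from LPS by -0.34 (95% confidence interval -1.41 to 0.73, adjusted p = 0.702), whereas the bright probe returned to the untreated level. The third probe of *Psme2* read -1.70 between LPS+USP7i and LPS (adjusted p = 0.0202), the same direction as the other 2. Of the 12 members with several probes, 11 had probes of 1 direction in this comparison and 9 had probes of 1 call, and in none did probes pass in opposite directions. Probes were of 1 direction in 10 and of 1 call in 8 of the 12 for LPS against untreated, and in 10 and 4 for LPS+USP7i against untreated.

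Counted together, 18 of the 49 genes rose and 4 fell in LPS+USP7i relative to LPS alone, beside 5.51% and 4.28% of all gene names. Over gene names well above background on all arrays, 18 and 4 of 47 members compared with 9.74% and 7.44%. These calls borrow the spread of the untreated arrays. Fitted on the 4 arrays of the 2 groups alone, limma called 0 of the 49 genes and no probe on the array, the smallest adjusted p being 0.0561, while 26 members were higher and 8 lower at an unadjusted p under 0.05. With 75th percentile scaling 8 were higher and 6 lower, beside 1717 and 1422 of all gene names. In the authors' log2 values these were 7 and 4, beside 1331 and 1237, and with the replicate block 13 and 2, beside 1426 and 1125. Without untreated replicate 1 or 2 there were 0 calls either way, and without another array 5 to 12 higher and 0 to 2 lower calls. All 22 called genes kept their direction in all 16 alternatives run for single genes. For some of these the outcome was fixed. A trended prior, a replicate block, the fit on the 2 groups alone or leaving out an untreated array alters the spread, not the difference.

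**Figure D3:**
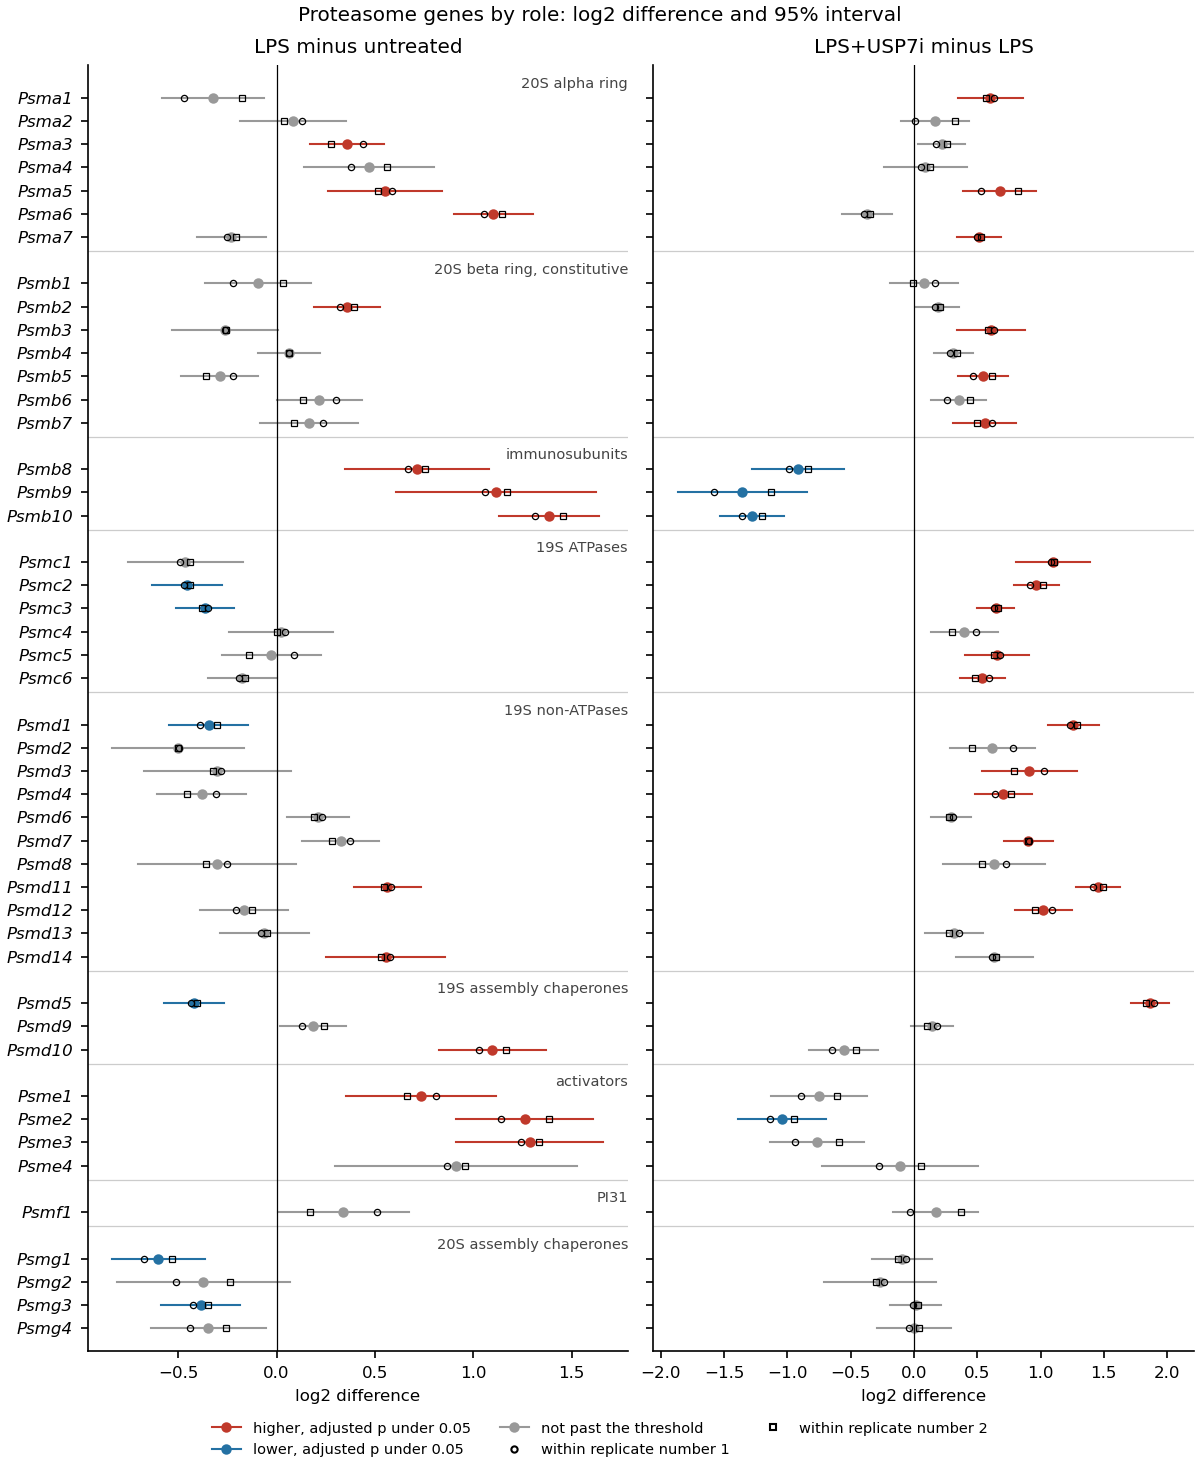
Log2 difference of each proteasome gene between LPS and untreated (left) and between LPS+USP7i and LPS (right), by role, as estimates with 95% confidence intervals (coloured where the adjusted p is under 0.05) and open symbols within replicate numbers 1 and 2. Immunosubunits lie to the right with LPS and to the left with the inhibitor, the 17 19S ATPase and non-ATPase genes lie to the right with the inhibitor, and Psma8, Psmb11 and Psmc3ip are left out.

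The comparison of LPS+USP7i with untreated cells shows the state reached with both agents, and shares samples with both other comparisons. Here 21 of 49 genes were higher and 1 was lower, beside 6.15% and 8.72% of all gene names, and over gene names well above background on all arrays 21 and 1 of 47 beside 10.8% and 16.3%. *Psmd11* differed most, by 2.02 (95% confidence interval 1.84 to 2.19, adjusted p = 0.00384), followed by *Psmd5* at 1.45 (95% confidence interval 1.29 to 1.60, adjusted p = 0.00451). *Psmd7*, which pairs with *Psmd14* in the lid, differed by 1.23 (adjusted p = 0.00626), *Psma5* by 1.23 (adjusted p = 0.00998) and *Psmd14* by 1.19 (adjusted p = 0.0112). All 17 19S ATPase and non-ATPase genes had positive differences, 11 of which passed, with a median of 0.51. The immunosubunits did not pass, at -0.20 (95% confidence interval -0.57 to 0.16, adjusted p = 0.508) for *Psmb8*, -0.24 (95% confidence interval -0.75 to 0.27, adjusted p = 0.549) for *Psmb9* and 0.11 (95% confidence interval -0.15 to 0.36, adjusted p = 0.591) for *Psmb10*. *Psmg1* was the single lower gene, at -0.70 (95% confidence interval -0.93 to -0.46, adjusted p = 0.0182).

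With 75th percentile scaling the median of all gene names in this comparison moved from 0.00 to 0.44 and the share of higher calls from 41.4% to 78.4%. Of the members 37 were then higher and 1 lower, beside 12216 and 3363 of all 34844 gene names. The authors' table gave 9 higher, beside 1720 of all gene names, and the fit on the 2 groups alone 11, beside 1347. The main fit called 2144 of all gene names higher. Leaving out any 1 array gave fewer higher calls than the main fit, among members and among all gene names. *Psmd5*, *Psmd7* and *Psmd11* were called higher in all 16 alternatives run for single genes. The plot of shares called sets the members' counts in the 3 comparisons beside all gene names.

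**Figure D4:**
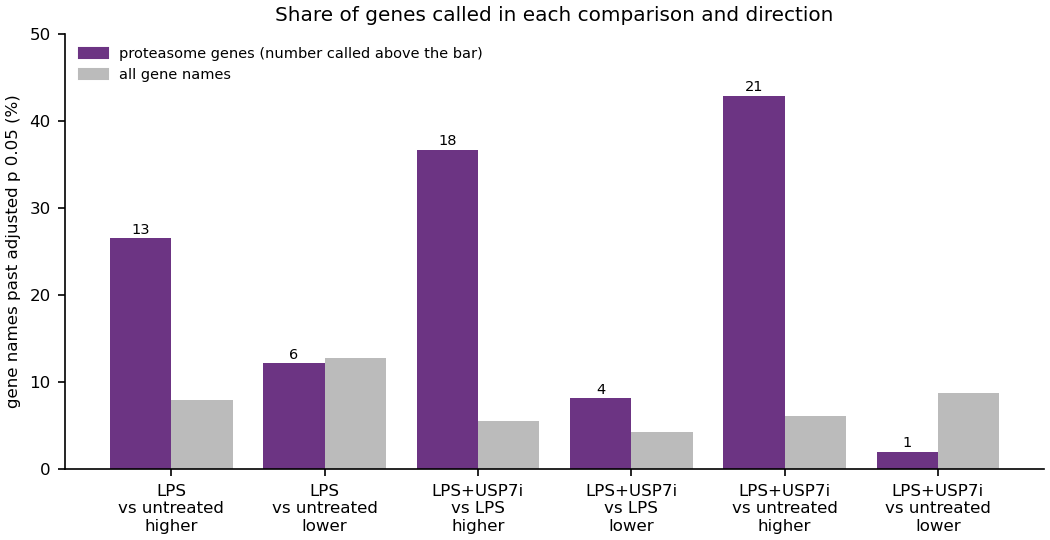
Percent of gene names past an adjusted p of 0.05 in each comparison and direction, for the 49 proteasome genes (purple, with the number called) and all 34844 gene names (grey). Members reach 26.5%, 36.7% and 42.9% in the higher direction and 12.2%, 8.16% and 2.04% in the lower direction.

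Each treatment group lay in a slide row of its own, rows 1, 2 and 4 of a single slide, so row and treatment cannot be told apart. The replicate number was also the slide column, and values within a number are therefore values within a column. *Usp7* itself, whose product is inhibited as a protein, read 11.95 and 11.98 in the untreated samples, 12.41 and 12.40 after LPS alone, and 12.11 and 12.43 after LPS+USP7i, and its transcript did not pass in any comparison (adjusted p = 0.104, 0.627 and 0.258).

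Genes that work with the proteasome were followed from lists, whose counts stand beside 7.98% higher and 12.8% lower with LPS over all gene names (14.1% and 23.9% over those well above background). With the inhibitor against LPS the shares were 5.51% and 4.28% (9.74% and 7.44%). Among 10 measured proteasome-associated genes, 3 rose and 2 fell with LPS, and 4 rose and 0 fell in LPS+USP7i against LPS. *Adrm1*, the ubiquitin receptor of the 19S base, differed by 1.20 (95% confidence interval 0.79 to 1.62, adjusted p = 0.0277), *Usp14*, a deubiquitinase bound to the proteasome, by 0.98 (adjusted p = 0.0135), and *AI314180*, the array's name for *Ecm29*, by 0.98 (adjusted p = 0.0472). *Pomp*, the chaperone that matures the 20S core, did not pass, at -0.06 with LPS and 0.21 with the inhibitor. With LPS, *Ecm29*, *Ubr4* and *Txnl1* rose by 0.78, 0.64 and 0.64. Of 12 shuttle and p97 genes, 2 rose and 3 fell with LPS, and 7 rose and 0 fell with the inhibitor. In both lists the lower calls with LPS were near the share over gene names well above background. The segregase gene *Vcp*, which encodes p97, differed by 1.37 (95% confidence interval 1.18 to 1.55, adjusted p = 0.0106), *Ddi2*, a protease that activates NRF1, by 1.18 (adjusted p = 0.0462) after -2.16 with LPS (adjusted p = 0.00735), and the shuttle gene *Rad23b* by 1.10 (adjusted p = 0.0107). Of 7 ubiquitin and E1 genes, 1 rose and 1 fell with LPS, and 1 rose and 1 fell with the inhibitor. The ubiquitin gene *Ubb* rose by 0.84 (adjusted p = 0.0215) after -0.50 with LPS (adjusted p = 0.0328). *Uba6*, a second ubiquitin E1, fell by 1.46 (adjusted p = 0.0322) after 0.98 with LPS (adjusted p = 0.0447).

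Among 9 regulators of proteasome transcription, 3 rose and 1 fell with LPS (beside 7.98% and 12.8% of all gene names), and 2 rose and 0 fell with the inhibitor (beside 5.51% and 4.28%). *Nfe2l1*, which encodes NRF1, a known activator of proteasome genes, read 7.85 and 7.75 in the untreated samples, 8.56 and 8.20 after LPS alone, and 8.75 and 8.63 after LPS+USP7i. It did not pass with LPS or between LPS+USP7i and LPS (adjusted p = 0.0766 and 0.357), and differed by 0.89 between LPS+USP7i and untreated (adjusted p = 0.0347). *Nfe2l2*, which encodes NRF2, differed by 0.71 (95% confidence interval 0.10 to 1.33, adjusted p = 0.162) with the inhibitor. Among their small Maf partners, *Mafg* differed by 2.42 (95% confidence interval 2.23 to 2.61, adjusted p = 0.00987) with the inhibitor, after -0.98 with LPS (adjusted p = 0.00499), and *Maff* and *Mafk* rose by 4.26 and 2.41 with LPS (adjusted p = 0.00395 and 0.00429). *Maff* and *Mafk* did not pass with the inhibitor, at 1.15 and 0.22 (adjusted p = 0.0757 and 0.54). *Bach1*, a repressor that also pairs with small Maf proteins, rose by 0.88 with the inhibitor (adjusted p = 0.0352).

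Of 12 genes of MHC class I peptide supply, 5 rose and 2 fell with LPS (beside 7.98% and 12.8% of all gene names), and 0 rose and 3 fell with the inhibitor (beside 5.51% and 4.28%). *Nlrc5*, the transactivator of MHC class I genes, read 10.95 and 10.64 in the untreated samples, 13.11 and 12.94 after LPS alone, and 10.92 and 11.19 after LPS+USP7i, a difference of -1.96 (95% confidence interval -2.42 to -1.51, adjusted p = 0.0162) between LPS+USP7i and LPS. *Tapbpl* and the peptide transporter gene *Tap2* fell by 1.5 and 0.98 (adjusted p = 0.0308 and 0.0449), and *Tap1* was just outside the threshold at -1.54 (95% confidence interval -2.29 to -0.79, adjusted p = 0.0524), after 2.41 (95% confidence interval 1.66 to 3.16, adjusted p = 0.0116) with LPS. *B2m*, the light chain, did not pass either way, at 0.07 and -0.03. Of 11 interferon pathway genes, 8 rose with LPS and 4 fell with the inhibitor, beside 7.98% and 4.28% of all gene names. *Irf8* differed by 1.42 with LPS and -3.13 with the inhibitor (adjusted p = 0.0267 and 0.0144). *Irf1*, an activator of immunosubunit genes in interferon-treated cells, read 12.92 and 12.41 in the untreated samples, 16.58 and 16.55 after LPS alone, and 15.80 and 16.30 after LPS+USP7i. It rose with LPS (adjusted p = 0.00446) and did not pass with the inhibitor, at -0.52 (95% confidence interval -1.22 to 0.18, adjusted p = 0.371). *Ifnb1*, which encodes interferon-β, was well above background on 1 of the 2 untreated arrays, so no size is given for its rise with LPS, and it differed by 0.26 with the inhibitor (adjusted p = 0.766). *Ifnar1*, its receptor chain, fell by 0.97 with the inhibitor (adjusted p = 0.0397).

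Promoter windows are shown because groups of members moved together. RefSeq windows of 300 bases around the start of a gene, most of them upstream of it, on the GRCm38.p6 build were matched by symbol for 41 of the 49 genes (44 windows), and 4 motifs were searched on both strands. The motifs, and the windows shown, were chosen after the expression values were seen. No window was found for *Psma8*, *Psmb1*, *Psmb2*, *Psmb7*, *Psmc3*, *Psmd3*, *Psmd7* or *Psmg2*. The interferon-stimulated response element core GAAANNGAA was in 7 of the 44 windows of members, beside 8.56% of all 32851 windows. The gamma-activated site TTCNNNGAA was in 3 of the 44, beside 8.3%. The antioxidant response element core TGACNNNGC was in 6 of the 44, beside 12.4%, and the NF-κB consensus in 6 of the 44, beside 8.46%. These letters can overlap one another, and a match is no evidence of binding. The interferon-stimulated response element core was found in *Psmb3*, *Psmb4*, *Psmc2*, *Psmd4*, *Psmd9*, *Psme1* and *Psmg4*, and the gamma-activated site in *Psmb8*, *Psmd2* and *Psmg1*. *Psmb9*, *Psmb10* and *Psme2* held none of the 4. The antioxidant response element core was found in *Psmb5*, *Psmb6*, *Psmc6*, *Psmd9*, *Psmd12* and *Psme4*, and the NF-κB consensus in *Psma6*, *Psma7*, *Psmd11*, *Psmd12*, *Psmd13* and *Psme4*. The windows of *Psmb9* and *Tap1*, which are transcribed away from each other, shared 275 bases. In the sequences, 5′ to 3′, capitals mark the match named, and the *Psmb9* window has none.
Psmb8, chr17:34197945-34198244 (+ strand), gamma-activated site: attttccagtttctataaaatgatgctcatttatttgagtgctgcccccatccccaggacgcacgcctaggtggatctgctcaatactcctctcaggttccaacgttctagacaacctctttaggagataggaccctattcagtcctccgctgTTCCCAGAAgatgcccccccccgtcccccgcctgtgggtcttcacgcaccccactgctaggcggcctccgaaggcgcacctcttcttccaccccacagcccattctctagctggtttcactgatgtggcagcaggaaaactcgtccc
Psme1, chr14:55578244-55578543 (+ strand), interferon-stimulated response element core: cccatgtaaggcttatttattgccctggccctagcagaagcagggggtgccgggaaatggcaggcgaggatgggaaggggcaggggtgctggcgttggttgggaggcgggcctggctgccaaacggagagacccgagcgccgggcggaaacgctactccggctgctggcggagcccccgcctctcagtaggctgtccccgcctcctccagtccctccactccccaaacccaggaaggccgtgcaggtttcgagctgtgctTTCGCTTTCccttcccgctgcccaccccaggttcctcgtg
Psmb9, chr17:34187281-34187580 (- strand), no match: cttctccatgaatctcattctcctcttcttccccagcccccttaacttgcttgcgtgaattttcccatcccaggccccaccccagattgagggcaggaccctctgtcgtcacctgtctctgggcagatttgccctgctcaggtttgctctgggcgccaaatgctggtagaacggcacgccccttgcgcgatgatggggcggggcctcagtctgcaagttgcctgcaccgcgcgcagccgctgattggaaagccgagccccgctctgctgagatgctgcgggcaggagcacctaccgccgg
Psmb5, chr14:54617946-54618245 (- strand), antioxidant response element core: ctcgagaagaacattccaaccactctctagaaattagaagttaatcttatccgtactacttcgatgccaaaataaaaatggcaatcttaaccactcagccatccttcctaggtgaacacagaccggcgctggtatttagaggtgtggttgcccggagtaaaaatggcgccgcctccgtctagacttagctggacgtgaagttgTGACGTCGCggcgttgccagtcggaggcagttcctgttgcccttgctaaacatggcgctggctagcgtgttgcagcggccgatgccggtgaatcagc
Psmd12, chr11:107479278-107479577 (+ strand), antioxidant response element core: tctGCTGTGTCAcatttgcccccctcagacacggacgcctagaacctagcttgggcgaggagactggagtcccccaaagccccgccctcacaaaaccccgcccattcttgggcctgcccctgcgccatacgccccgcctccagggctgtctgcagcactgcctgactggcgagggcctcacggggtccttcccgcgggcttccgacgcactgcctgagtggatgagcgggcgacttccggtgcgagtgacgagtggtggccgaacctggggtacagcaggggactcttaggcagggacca
Psmd11, chr11:80428365-80428664 (+ strand), NF-κB consensus: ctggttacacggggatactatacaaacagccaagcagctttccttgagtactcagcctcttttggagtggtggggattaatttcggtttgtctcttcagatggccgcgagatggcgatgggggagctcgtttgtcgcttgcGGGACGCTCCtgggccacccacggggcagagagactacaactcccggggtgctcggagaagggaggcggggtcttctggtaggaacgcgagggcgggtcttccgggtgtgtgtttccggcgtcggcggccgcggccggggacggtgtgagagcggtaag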

How the data were processed

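The authors deposited one scanner file per array, and the processed signal intensity in it was background-corrected by the Agilent software, per the file headers. They also deposited a table of log2 values, quantile-normalized with limma per the study's methods, with array medians of 5.07 to 5.10. Here log2 intensities of 59305 non-control spots were quantile-normalized, outlier-flagged spots were left out, and spots of one of the 55681 probes were averaged. All 6 arrays were fitted with limma 3.58.1 (R 4.3.3) on group means, with 3 residual and 1.048 prior degrees of freedom, and p-values were adjusted by Benjamini-Hochberg over 55680 probes, with a threshold of 0.05. A gene was represented by its brightest probe. With 2 arrays per group, their number limits the precision. Named genes were fixed catalytic, activator and chaperone genes, up to 5 members with the largest difference per comparison and direction among those past the threshold, up to 3 per related list, and further genes chosen after their values were seen. Members and lists were chosen with earlier results of these data known, and a few list genes were dropped after their values were seen. All 49 members matched RefSeq by symbol and by accession. Alternatives covered normalization, background, the authors' table, filters, prior, samples in the fit, a replicate block, arrays left out and rules for several probes.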

Additional observations from a re-analysis of the deposited data

How the results depend on the processing

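The counts of members past the threshold moved more than their directions. A trended prior, a replicate block and leaving out arrays outside the comparison could not change a direction. From 13 higher and 6 lower in LPS against untreated, 75th percentile scaling gave 25 and 1, the authors' log2 values gave 8 and 1, and leaving out 1 array 3 to 9 and 0 to 5. From 18 higher and 4 lower in LPS+USP7i against LPS, 75th percentile scaling gave 8 higher, the authors' values gave 7 higher, only the groups compared 0 and 0, normexp, leaving out dim probes and a trended prior each 7 lower, and leaving out 1 array 0 to 12 and 0 to 2. From 21 higher and 1 lower in LPS+USP7i against untreated, 75th percentile scaling gave 37 higher, the authors' values gave 9, only the groups compared 11, normexp 3 lower, leaving out dim probes, a trended prior and the mean of a gene's probes each 2 lower, and leaving out 1 array 3 to 12 and 0 to 1. Leaving out an array leaves its group with 1 sample, assumed to vary like the others. The 75th percentile over spots well above background on all arrays, chosen after seeing the data, gave 33 higher and 4 lower in the last comparison. They stand beside 10615 and 4288 of all 34844 gene names. Higher calls over all gene names moved too, with 75th percentile scaling, the authors' values and only the groups compared. From 1920 in LPS+USP7i against LPS they went to 1717, 1331 and 0. From 2144 in LPS+USP7i against untreated they went to 12216, 1720 and 1347. Lower calls in LPS+USP7i against LPS went from 1490 to 2379 with normexp, 2366 without dim probes and 1580 with a trended prior. The cause of these shifts was not tested.

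Of 3738 values of 78 genes under the alternatives, 99 had the other sign, 10 of them called before or after. The 3738 include values from alternatives that could not change a sign. All 10 were LPS against untreated with 75th percentile scaling, where *Psmb3* read 0.31, *Psmc2* 0.11, *Psmc3* 0.24, *Psmc5* 0.37, *Psmd1* 0.17, *Psmd13* 0.39, *Pomp* 0.48, *Usp14* 0.0332, *Ubb* 0.0825 and *Vcp* 0.0827, beside a median of 0.40 over all gene names. *Psmb10* minus *Psmb7* moved from 1.22 to 1.46 between LPS and untreated and from -0.62 to -0.43 between LPS+USP7i and untreated under both percentile scalings, and the other pair differences moved by less than 1 SD.

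In the labels the samples share only a replicate number, which was also the slide column, with 2 pairs per comparison. Deviations of same-numbered samples from their group means correlated at 0.47 (untreated and LPS), 0.40 (untreated and LPS+USP7i) and 0.42 (LPS and LPS+USP7i). With a replicate block, 11 members were higher and 6 lower in LPS against untreated, 13 and 2 in LPS+USP7i against LPS, and 15 and 1 in LPS+USP7i against untreated. In the same order, 2936 and 4713, 1426 and 1125, and 2213 and 3284 of all gene names were called. Signal over background limits *Psma8*, *Psmb11* and the dim *Psmb9* probe.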
